A study of Mus musculus with 6 samples.

Results

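The genes described here are 9 regulators of limb bud and facial mesenchyme, Hand2, Lhx2, Lhx9, Lmx1b, Msx1, Msx2, Alx1, Alx4 and Shox2. They were picked by name, with earlier results of the same data in view, so their differences between genotypes are a description and carry no test. Each name had 1 of the 51997 named loci of the tables, and 7 of the 9 passed the count filter that left 16787 tested loci. The label of the set speaks of homeobox genes, which holds for 8 of them, while Hand2 encodes a basic helix-loop-helix (bHLH) factor. The samples were mouse embryonic fibroblasts (MEFs, connective-tissue cells grown out of embryos) of 2 genotypes, Fbxw7 KO (3 libraries) and WT (3 libraries). Fbxw7 encodes the substrate-binding part of a ubiquitin ligase. All 6 libraries were total RNA of cells grown in medium with 15% serum, and the labels named no strain, embryo age, deletion or Cre driver. The labels do not tell whether replicates of one genotype came from different embryos or cultures, so every p-value is set against a spread between libraries that could be purely technical.

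As background, limb buds and facial prominences are patterned by transcription factors that mesenchymal cells keep expressing according to where they sit. HAND2 marks posterior limb bud and mandibular mesenchyme and switches on Shh in the limb bud. LHX2, LHX9 and LMX1B are LIM-homeodomain factors; the first 2 act together in outgrowth of the limb bud, and LMX1B gives limbs their dorsal side. MSX1 and MSX2 are repressors induced by BMP signals, ALX1 and ALX4 are paired-type factors of frontonasal mesenchyme, with ALX4 also in the anterior limb bud, and SHOX2 shapes the proximal limb and the palate.

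Depth was 55720129 to 64198455 deposited fragments per library, or 51151456 to 70624191 after undoing a scaling factor of each library. Among fibroblast markers all 10 had a mean of at least 1 CPM (fragments scaled by library total and TMM factor), with a summed level of 24934 to 27166 CPM in Fbxw7 KO and 24297 to 32808 CPM in WT. Of these, Fbn1, Lum and Dcn were called higher in Fbxw7 KO, with means of 1729, 233 and 1855 CPM against 1007, 13.8 and 631 CPM in WT, and Vim lower, with 2152 CPM in Fbxw7 KO against 3832 CPM in WT (edgeR adjusted p = 0.0139, 0.00612, 0.0252 and 0.00972). Epithelial markers summed to at most 0.158 CPM in Fbxw7 KO and 0.446 CPM in WT, with Krt8 and Krt14 at 0, and muscle markers and cartilage and bone markers each to at most 0.269 CPM in Fbxw7 KO and 0.289 CPM in WT. Endothelial markers were lower in Fbxw7 KO, at 0.619 to 1.42 CPM against 6.46 to 9.27 CPM in WT, carried by Kdr and Tek while Cdh5 and Pecam1 stayed near 0. Blood markers summed to 10.8 to 13.5 CPM in Fbxw7 KO and 18.6 to 21.2 CPM in WT, mostly Lyz2, with Hbb-bs at 0. Neural markers summed to 14.2 to 19.4 CPM in Fbxw7 KO and 5.49 to 8.08 CPM in WT, carried by Nes and a shared locus of Elavl3, with Sox2 at 0, and glial and neural crest markers summed to at most 2.06 CPM in Fbxw7 KO and 2.33 CPM in WT with Foxd3 at 0. Transcripts of the Xist locus, which also carries the names of other noncoding genes, averaged 911 CPM in Fbxw7 KO and 1.47 CPM in WT, and Ddx3y of the Y chromosome averaged 30.4 CPM in Fbxw7 KO and 95.9 CPM in WT, so sex-linked transcripts moved with genotype. Each Fbxw7 KO library held both kinds, with the Xist locus at 1046, 798 and 890 CPM and Ddx3y at 31.3, 24.0 and 35.9 CPM in replicates 1, 2 and 3. The part of these markers in the results below was not tested, and sex-linked transcripts and genotype cannot be told apart in these libraries. Fbxw7 itself read 26.4 ± 1.97 CPM in Fbxw7 KO and 29.3 ± 0.869 CPM in WT (SD, n = 3 each), a sum over the whole gene that does not check the deletion. The third library of each genotype stood apart in the median squared difference between libraries, set against sampling noise on the same squared scale. Between replicates 1 and 2 this was 6.56 (Fbxw7 KO) and 7.42 (WT) times the noise. Against replicate 3 it was 26.8 to 42.6 times, so single libraries are given throughout.

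The set did not behave as 1 block. Hand2, Lhx9, Msx2 and the sparse Alx1 locus were lower in all 3 Fbxw7 KO libraries, Shox2 was slightly higher in all 3, and Lmx1b, Lhx2 and Msx1 overlapped between genotypes. Alx4 was nearly silent in Fbxw7 KO replicates 1 and 2 and was transcribed in Fbxw7 KO replicate 3. The means of 6 members were below WT and those of 3 above, the groups did not overlap for 6 of the 9, and 5 of the 7 tested members did not overlap (37.7% of all tested loci did not), 4 of them lower in Fbxw7 KO (18.4% of all tested loci). Of the 7 tested members, 3 were past an adjusted p of 0.05 in edgeR, all lower (8.08% of all tested loci were called lower and 16.1% called at all). Leaving out any single library gave 3 called members, except that 4 were called without Fbxw7 KO replicate 3. Since the members were picked from this contrast, nothing is read from these counts or from how stable they were. In a bulk sample fewer cells expressing a gene and less RNA per cell cannot be told apart.

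**Figure D1:**
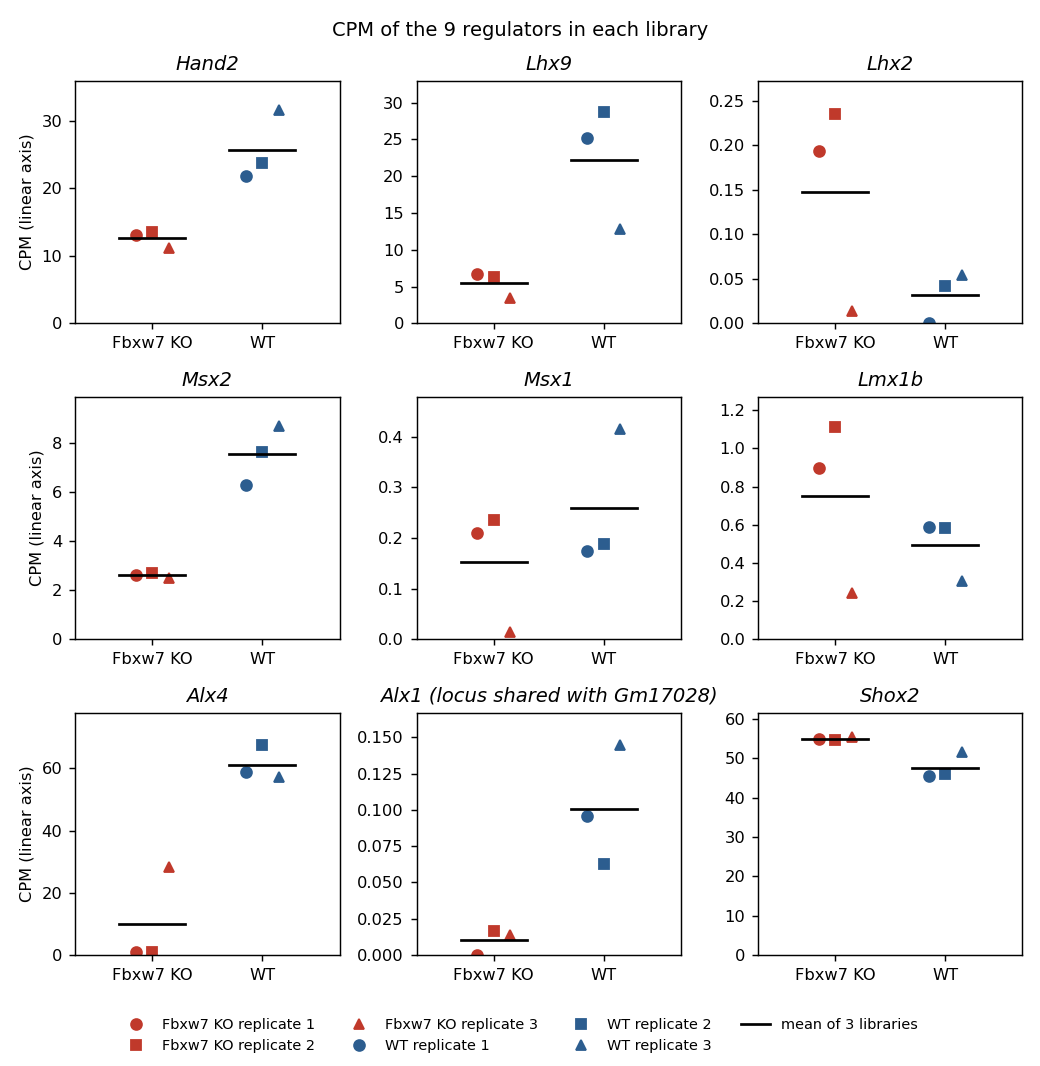
CPM of each of the 9 regulators (linear y axes starting at 0) in the 3 Fbxw7 KO libraries (red, left) and the 3 WT libraries (blue, right), with symbols for the replicate number and bars for the mean. Hand2, Lhx9 and Msx2 lie lower in every Fbxw7 KO library, while Alx4 is at 28.3 CPM in Fbxw7 KO replicate 3 and near 1 CPM in the other two.

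Promoter windows from the RefSeq promoter table (GRCm38.p6, 250 bases before to 50 after the start site) were matched by symbol for 7 of the 9 members, with 8 windows because Lhx2 has alternative starts. The windows of Hand2, Msx2 and Lmx1b are shown: Hand2 and Lmx1b because each has a noncoding gene starting close by on the other strand, and Msx2 because it and Hand2 hold the homeodomain core letters. Sequences run 5′ to 3′ on the gene's strand, and capitals mark TAATTA (a core that many homeodomains bind), GGGCGG (the GC box) and CCAAT (the CCAAT box), each searched on both strands; none of the motifs contains another.
Hand2, chr8:57320733-57321032, plus strand: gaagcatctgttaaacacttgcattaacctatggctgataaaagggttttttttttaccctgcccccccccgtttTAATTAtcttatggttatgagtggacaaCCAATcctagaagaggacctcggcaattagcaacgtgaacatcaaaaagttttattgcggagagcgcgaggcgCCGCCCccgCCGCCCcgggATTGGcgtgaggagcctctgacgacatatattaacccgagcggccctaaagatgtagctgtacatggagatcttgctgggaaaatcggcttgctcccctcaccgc
Msx2, chr13:53472731-53473030, minus strand: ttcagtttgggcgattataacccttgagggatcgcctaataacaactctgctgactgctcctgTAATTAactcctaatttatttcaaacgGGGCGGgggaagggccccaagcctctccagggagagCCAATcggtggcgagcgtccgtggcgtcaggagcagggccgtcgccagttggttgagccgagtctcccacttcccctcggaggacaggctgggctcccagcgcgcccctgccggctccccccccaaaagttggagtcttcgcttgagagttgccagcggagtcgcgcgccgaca
Lmx1b, chr2:33641049-33641348, minus strand: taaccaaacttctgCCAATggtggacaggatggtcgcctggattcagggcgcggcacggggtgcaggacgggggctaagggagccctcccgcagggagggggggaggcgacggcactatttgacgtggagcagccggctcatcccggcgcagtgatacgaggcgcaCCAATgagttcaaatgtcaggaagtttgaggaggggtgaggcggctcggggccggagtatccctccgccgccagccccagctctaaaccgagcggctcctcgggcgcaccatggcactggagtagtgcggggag
TAATTA was in 2 of the 8 member windows, those of Hand2 and Msx2, and in 5.29% of the 32851 windows of the whole table. GGGCGG was in 5 of the 8 and in 35.7% of all windows, and CCAAT in 5 of the 8 and in 37.4%. CpG dinucleotides numbered 34 in the first Lhx2 window, 17 in Hand2, 22 in Msx2, 24 in Lmx1b and 6 in Lhx9, against a median of 7 over all windows. The start site of the Lhx9 window (138842444) lies inside the GENCODE span of this minus-strand gene, which reaches 138848577. Its CpG count describes that inner start only. These matches describe letters in a window and do not mark sites that a factor uses.

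Levels between genes are compared on the FPKM scale, which divides fragments by transcript length and library total. In WT the order was Shox2 with 17.7 ± 1.74 FPKM, Hand2 with 11.2 ± 2.43, Alx4 with 11.0 ± 0.990, Lhx9 with 5.70 ± 2.17 and Msx2 with 3.15 ± 0.535 FPKM (SD, n = 3). The ranges of Hand2 and Alx4 overlapped, as did those of Lhx9 and Msx2. The other members were scarce in WT, with means of 0.142 FPKM for Msx1, 0.113 for Lmx1b, 0.0661 for Alx1 and 0.0218 for Lhx2, and neighbours in this order overlapped except Alx1 and Lhx2. In Fbxw7 KO cells Shox2 stood first with 20.5 ± 1.40 FPKM and Hand2 second with 5.33 ± 0.573 FPKM (SD, n = 3). Alx4 took the third place by its mean of 1.75 ± 2.74 FPKM, but its libraries read 0.174, 0.148 and 4.91 FPKM and spanned the ranges of Lhx9 (1.41 ± 0.580 FPKM) and Msx2 (1.06 ± 0.0594 FPKM). Lmx1b followed with 0.290 ± 0.172 FPKM, Lhx2 with 0.0992 ± 0.0830, Msx1 with 0.0816 ± 0.0650 and Alx1 with 0.00679 FPKM, and neighbours from Lmx1b to Alx1 overlapped. By mean FPKM, Shox2 was above 90.9% of named loci in Fbxw7 KO and above 89.4% in WT, and Lhx9 above 76.1% in Fbxw7 KO and 81.8% in WT.

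**Figure D2:**
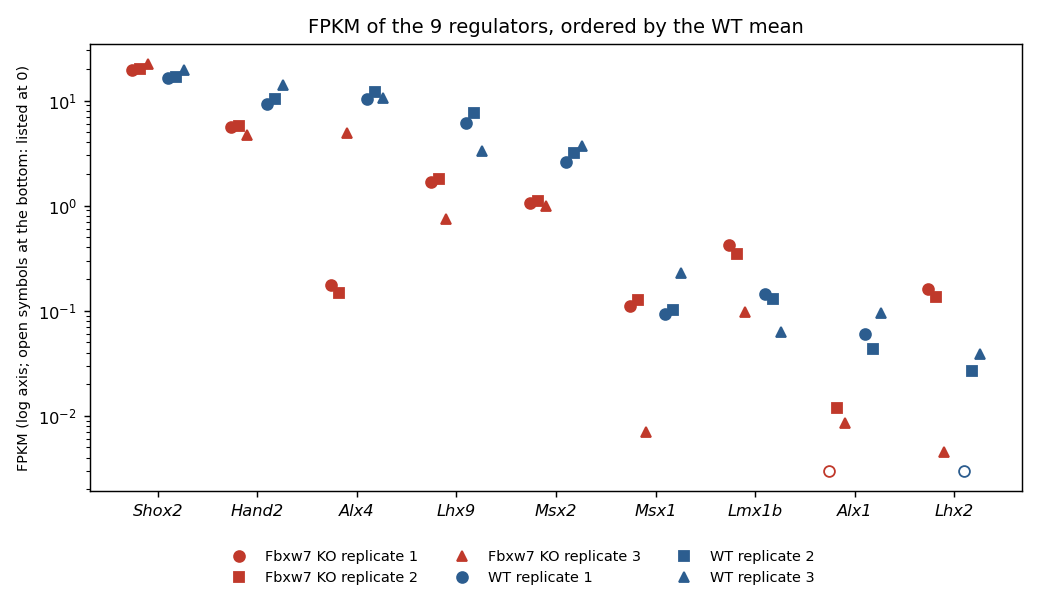
FPKM of the 9 regulators in each library on a log y axis, Fbxw7 KO (red) left of WT (blue) for each gene, genes ordered by their WT mean; open symbols at the bottom are libraries listed at 0. Shox2, Hand2, Alx4, Lhx9 and Msx2 lie above 2 FPKM in every WT library, and the other 4 genes lie below 0.5 FPKM in all 6 libraries.

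Hand2 (chromosome 8, 57320983 to 57324633, plus strand, protein coding, mm10 with GENCODE M21) read 13.2, 13.5 and 11.2 CPM in Fbxw7 KO replicates 1, 2 and 3, against 21.8, 23.8 and 31.6 CPM in WT replicates 1, 2 and 3. Every Fbxw7 KO library lay below every WT library, and WT replicate 3 was the highest. The means were 12.6 ± 1.22 CPM in Fbxw7 KO and 25.8 ± 5.19 CPM in WT (SD, n = 3 each), which is 49.0% of WT, with a log2 fold change of -1.03 ± 0.16 (SE).

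The Hand2 window shown above also holds the RefSeq start of Hand2os1, a noncoding gene that runs away from Hand2 on the other strand, 124 bases from the Hand2 start. Hand2os1 itself is not analysed here; the locus overlapping the Hand2 span was named AV026068,Gm17994. It read 1.95, 1.95 and 4.36 CPM in Fbxw7 KO and 1.23, 0.882 and 1.82 CPM in WT, all higher in Fbxw7 KO. Its log2 fold change of 1.07 ± 0.41 (SE) did not pass the test (edgeR adjusted p = 0.116). No source used here says whether fragments were counted by strand, so reads of overlapping genes on opposite strands may be mixed. The long noncoding gene 5033428I22Rik, which RefSeq calls Hdnr with the synonym handsdown, lies 7.49 kb beyond Hand2. This and the later distances run between GENCODE gene spans, while neighbours were taken as nearest by the wider locus spans of the tables. Only tested loci with a single gene name were taken as neighbours on a side, so a nearer locus with several names may have been passed over. The gene 5033428I22Rik fell to 2.95, 3.65 and 3.88 CPM in Fbxw7 KO, against 7.41, 5.36 and 9.35 CPM in WT (log2 fold change -1.08 ± 0.23 SE, edgeR adjusted p = 0.0193). This call was lost without WT replicate 1 (adjusted p = 0.0663), Fbxw7 KO replicate 1 (0.0825) or Fbxw7 KO replicate 2 (0.0607) in edgeR. On the other side the nearest tested locus with a single gene name was the F-box gene Fbxo8 at 727 kb. It fell by 0.41 on the log2 scale (SE 0.10, edgeR adjusted p = 0.029). That call was lost without WT replicate 1 (adjusted p = 0.125), WT replicate 2 (0.0868), Fbxw7 KO replicate 1 (0.111) or Fbxw7 KO replicate 2 (0.0976).

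Lhx9 (chromosome 1, 138825186 to 138848577, minus strand) read 6.71, 6.28 and 3.38 CPM in Fbxw7 KO, against 25.1, 28.7 and 12.8 CPM in WT. In both genotypes replicate 3 was the lowest, and the groups did not overlap. The means were 5.46 ± 1.81 CPM in Fbxw7 KO and 22.2 ± 8.35 CPM in WT (SD, n = 3 each), 24.6% of WT, with a log2 fold change of -2.02 ± 0.36 (SE). The loci next to Lhx9, 2310009B15Rik at 3.41 kb and the mitotic kinase gene Nek7 at 205 kb, did not pass the test (edgeR adjusted p = 0.148 and 0.273); 2310009B15Rik passed it, as higher, without Fbxw7 KO replicate 3 (adjusted p = 0.0429).

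Lhx2 (chromosome 2, 38339281 to 38369733, plus strand), its closest relative in the LIM-homeodomain family, was hardly transcribed. It had 11, 14 and 1 fragments in Fbxw7 KO and 0, 2 and 3 fragments in WT, counted before the scaling of the libraries. Fbxw7 KO replicates 1 and 2 stood above the other 4 libraries, and Fbxw7 KO replicate 3 lay within WT. The exact 95% Poisson intervals were 5.49 to 19.7 and 7.65 to 23.5 fragments for Fbxw7 KO replicates 1 and 2, and 0.0253 to 5.57 for replicate 3. For WT replicates 2 and 3 they were 0.242 to 7.22 and 0.619 to 8.77 fragments, and for the 0 in WT replicate 1 it was 0 to 3.69 fragments. The limit used for a 0 is the one-sided 3 fragments, here 0.0454 CPM (of the library total, without the TMM factor). These intervals cover counting error only, as PCR copies were not marked. Of the loci next to Lhx2, the polarity gene Crb2 at 540.2 kb did not pass the test (edgeR adjusted p = 0.779), and Nek6, a mitotic kinase gene 142 kb beyond Lhx2, rose to 153, 159 and 134 CPM in Fbxw7 KO, against 67.8, 71.8 and 53.6 CPM in WT (log2 fold change 1.21 ± 0.13 SE, edgeR adjusted p = 0.00139).

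Lmx1b (chromosome 2, 33560965 to 33640511, minus strand) read 0.896, 1.11 and 0.242 CPM in Fbxw7 KO, against 0.589, 0.583 and 0.307 CPM in WT. Fbxw7 KO replicates 1 and 2 were the highest of all libraries and Fbxw7 KO replicate 3 the lowest, so the groups overlapped. The log2 fold change was 0.60 ± 0.54 (SE), and 1.02 without Fbxw7 KO replicate 3, which lowers it by more than any other library. The noncoding gene C130021I20Rik starts 95 bases from Lmx1b on the other strand by RefSeq, inside the Lmx1b window shown above. It read 2.72, 2.46 and 0.700 CPM in Fbxw7 KO and 0.764, 0.479 and 0.181 CPM in WT. In this locus too, replicate 3 was the lowest library of each genotype, and Fbxw7 KO replicates 1 and 2 the highest. Its log2 fold change of 2.05 ± 0.62 (SE) did not pass the test (edgeR adjusted p = 0.0603), and it passed without Fbxw7 KO replicate 3 (log2 fold change 2.45, adjusted p = 0.0162). The zinc-finger gene Zbtb43, 92.4 kb on the other side, read 35.5, 35.5 and 33.0 CPM in Fbxw7 KO and 29.3, 29.9 and 27.2 CPM in WT, and did not pass (edgeR adjusted p = 0.0919).

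Msx2 (chromosome 13, 53466884 to 53473074, minus strand) read 2.64, 2.71 and 2.50 CPM in Fbxw7 KO, against 6.32, 7.64 and 8.69 CPM in WT. The Fbxw7 KO libraries lay within a factor of 1.08 of each other and below all WT libraries. The means were 2.62 ± 0.105 CPM in Fbxw7 KO and 7.55 ± 1.19 CPM in WT (SD, n = 3 each), 34.7% of WT, with a log2 fold change of -1.53 ± 0.17 (SE). The related Msx1 (chromosome 5, 37820485 to 37824583, minus strand) had 12, 14 and 1 fragments in Fbxw7 KO and 11, 9 and 23 fragments in WT. The groups overlapped, with Fbxw7 KO replicate 3 lowest and WT replicate 3 highest. In CPM this was 0.153 ± 0.122 in Fbxw7 KO and 0.259 ± 0.135 in WT (SD, n = 3 each), a log2 fold change of -0.72 ± 0.71 (SE) that stood at 0.33 without replicate 3 of both genotypes. The tested neighbours of the MSX genes did not pass: Evc2 and Stx18 beside Msx1 had edgeR adjusted p of 0.981 and 0.406, Sptlc1 and Sfxn1 beside Msx2 0.315 and 0.465.

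Alx4 (chromosome 2, 93642384 to 93681339, plus strand) read 1.05, 0.859 and 28.3 CPM in Fbxw7 KO replicates 1, 2 and 3, against 59.0, 67.5 and 57.2 CPM in WT. The WT libraries were close together, all Fbxw7 KO libraries lay below them, and on a log scale Fbxw7 KO replicate 3 was much nearer to WT than to the other Fbxw7 KO libraries. Fbxw7 KO replicates 1, 2 and 3 held 1.72%, 1.40% and 46.3% of the WT mean. In fragments before scaling these were 60, 51 and 2105 in Fbxw7 KO and 3708, 3243 and 3166 in WT. The genotype means of 10.1 ± 15.8 CPM in Fbxw7 KO and 61.2 ± 5.52 CPM in WT (SD, n = 3 each) hide this, and the log2 fold change of -2.60 ± 1.20 (SE) stood at -6.01 without Fbxw7 KO replicate 3.

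Fbxw7 KO replicate 3 stood 29.6-fold above the mean of Fbxw7 KO replicates 1 and 2 for Alx4. Among the 13452 tested loci with a mean of at least 1 CPM, 2 had a ratio of this size or more, Alx4 included. Being at least 16-fold lower in Fbxw7 KO replicates 1 and 2 than in WT and at least 16-fold higher in Fbxw7 KO replicate 3, bounds chosen after the values were seen, held for 1 of these loci, Alx4. Fbxw7 KO replicate 3 differed at least 4-fold from the other Fbxw7 KO libraries for 3 of the 7 tested members, Alx4 upward and Msx1 and Lmx1b downward (1.44% of all tested loci), and for the untested Lhx2 downward. Of the 9 members, 6 had their lowest Fbxw7 KO value in replicate 3 and 2 their highest, Alx4 and Shox2. These differences are between single libraries, and part of what chose the members.

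**Figure D3:**
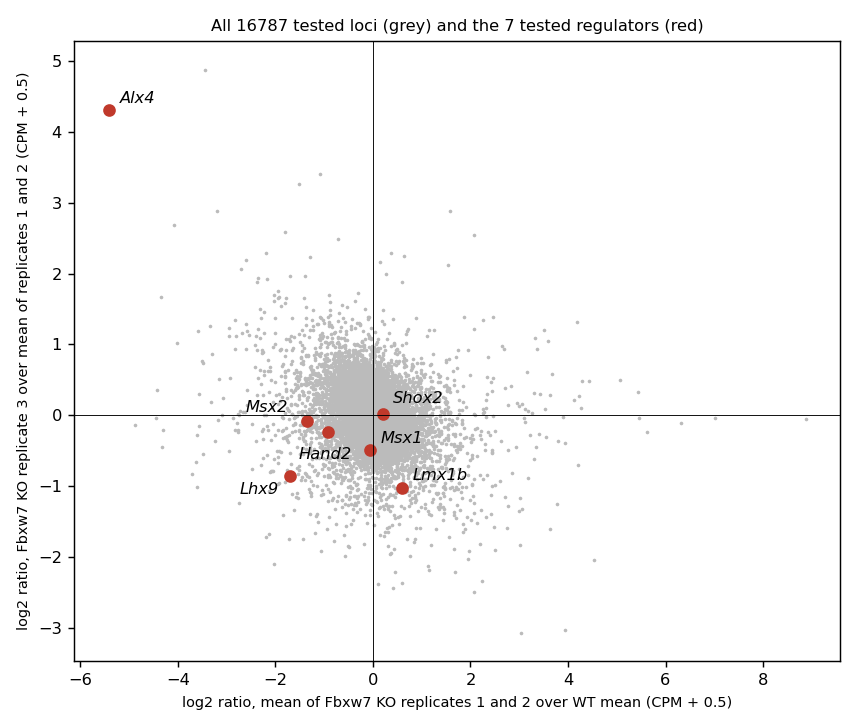
Each of the 16787 tested loci (grey) and the 7 tested regulators (red) by the log2 ratio of Fbxw7 KO replicates 1 and 2 to WT (x axis) and of Fbxw7 KO replicate 3 to Fbxw7 KO replicates 1 and 2 (y axis), both on CPM + 0.5. Alx4 sits at the far upper left, low in Fbxw7 KO replicates 1 and 2 and raised in replicate 3, while Hand2, Msx2 and Shox2 lie near the horizontal line.

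The neighbours of Alx4 did not share this pattern. Ext2, a heparan sulfate polymerase gene whose locus span overlaps that of Alx4, read 155, 166 and 143 CPM in Fbxw7 KO and 152, 171 and 173 CPM in WT, which overlapped (log2 fold change -0.10 ± 0.10 SE, edgeR adjusted p = 0.551). Accs, 152 kb beyond, read 10.6, 9.82 and 10.6 CPM in Fbxw7 KO and 10.3, 10.5 and 8.11 CPM in WT (edgeR adjusted p = 0.683). Cd82, 179 kb before, read 25.8, 27.8 and 25.0 CPM in Fbxw7 KO and 31.0, 32.8 and 37.0 CPM in WT, and did not pass (edgeR adjusted p = 0.058).

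The locus of Alx1 (chromosome 10, 102998707 to 103030215, minus strand) also carried the name Gm17028, a noncoding gene on the same strand whose reads cannot be separated. It had 0, 1 and 1 fragments in Fbxw7 KO and 6, 3 and 8 fragments in WT. All Fbxw7 KO libraries lay below all WT libraries at the edge of detection. Summed over libraries and set against their totals, the ratio of Fbxw7 KO to WT was 0.109, with an exact 95% interval of 0.0122 to 0.460 for counting error only. This interval takes fragments as the unit, leaves out the spread between libraries and is not a test of genotype. The same ratio for Lhx2 was 4.83 (1.82 to 16.1), although its Fbxw7 KO replicate 3 lay within WT. For the 0 in Fbxw7 KO replicate 1 the same one-sided limit of 3 fragments is 0.0520 CPM. Nts, the neurotensin gene 508 kb before Alx1, read 0.527, 0.438 and 0.444 CPM in Fbxw7 KO and 0, 0.0208 and 0.0361 CPM in WT, and rose (edgeR adjusted p = 0.00245). Lrriq1, 15.8 kb on the other side, read 0.141, 0.152 and 0.242 CPM in Fbxw7 KO and 0.525, 0.541 and 0.271 CPM in WT, and did not pass (edgeR adjusted p = 0.0619), but passed without WT replicate 3 (0.0315) or Fbxw7 KO replicate 3 (0.0499).

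Shox2 (chromosome 3, 66971727 to 66981771, minus strand), the most abundant member, read 54.9, 54.5 and 55.5 CPM in Fbxw7 KO, against 45.5, 46.0 and 51.5 CPM in WT. All Fbxw7 KO libraries lay above all WT libraries, with a gap of a few CPM to WT replicate 3. The means were 55.0 ± 0.494 CPM in Fbxw7 KO and 47.7 ± 3.36 CPM in WT (SD, n = 3 each), a log2 fold change of 0.21 ± 0.09 (SE). Rsrc1, a splicing factor gene that starts beside Shox2 on the other strand, read 62.2, 57.3 and 62.6 CPM in Fbxw7 KO and 64.2, 58.8 and 64.0 CPM in WT, which overlapped (edgeR adjusted p = 0.802). Ptx3, which encodes a secreted pattern-recognition protein and lies 746 kb away, rose to 206, 215 and 151 CPM in Fbxw7 KO, against 37.0, 40.5 and 38.2 CPM in WT (log2 fold change 2.31 ± 0.15 SE, edgeR adjusted p = 0.000143). Mlf1, 392.3 kb beyond Shox2 and past Rsrc1, did not pass (edgeR adjusted p = 0.132), but passed, as higher, without WT replicate 3 (adjusted p = 0.0192).

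**Figure D4:**
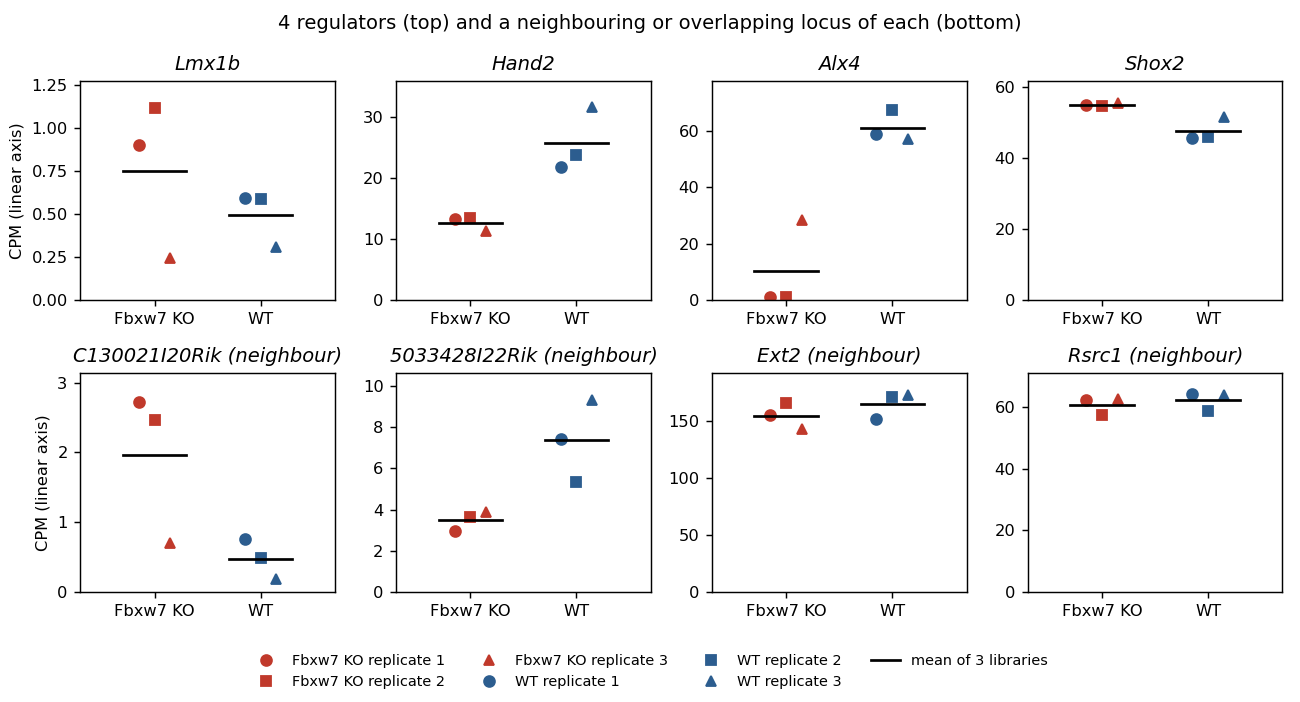
CPM (linear y axes starting at 0) of Lmx1b, Hand2, Alx4 and Shox2 in the top row and of a neighbouring or overlapping locus of each in the bottom row, by library, with Fbxw7 KO (red) left of WT (blue) and bars for the mean. C130021I20Rik repeats the library order of low replicate 3 seen for Lmx1b, 5033428I22Rik is lower in Fbxw7 KO like Hand2, and Ext2 and Rsrc1 overlap between genotypes.

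Over all members, 21 tested loci were the nearest with a single gene name on a side of a member or overlapped its span. Of these, 3 rose (Nek6 beside Lhx2, Nts and Ptx3) and 2 fell (5033428I22Rik and Fbxo8), 23.8% against 16.1% of all tested loci in edgeR. The count of 5 calls became 3 without WT replicate 1, Fbxw7 KO replicate 1 or Fbxw7 KO replicate 2, and 8 without Fbxw7 KO replicate 3. Nek6, Nts and Ptx3 were called whichever single library was left out.

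For each of the 5 members with at least 1 CPM, the 3 genes with the most similar level across the 6 libraries were listed by Pearson's r of log2(CPM + 0.5) among 10726 candidates. The points share libraries and genotype, so high values are common and describe likeness only. For Alx4 they were Chmp4c (r = 0.998), Jcad (r = 0.996) and Pcdh18 (r = 0.995), over 6 libraries. Their amplitude was far smaller: Chmp4c read 8.62, 8.46 and 14.3 CPM in Fbxw7 KO and 17.2, 17.4 and 16.4 CPM in WT. For Hand2 they were Zfp275, Ergic1 and Myo1c, for Lhx9 Pld2, Ptpn13 and Aplp2, for Msx2 Lpin3, P2ry2 and Trmt2a, and for Shox2 Smap2, Spats2 and Mybl2. Lpin3, a phosphatidate phosphatase gene, read 0.141, 0.168 and 0.162 CPM in Fbxw7 KO and 2.86, 3.52 and 5.42 CPM in WT, the same order of libraries in WT as Msx2.

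Other genes of limb and face, with relatives and partners of these regulators, were taken from 5 lists with 153 different entries, of which 97 were tested. The lists were drawn up with earlier results of these data known, so the share called in them is a description. The rest had too few fragments (50), a locus carrying further gene names (4) or no locus of their own name (2). In edgeR 15 rose and 14 fell (29.9%, against 16.1% of all tested loci, of which 8.03% were called higher and 8.08% lower), with a median log2 fold change of -0.01 (0.01 over all tested loci). The count of 29 became 16 when WT replicate 1 or WT replicate 2 was left out, and 15 with Fbxw7 KO replicate 1 left out.

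In the list of other homeobox genes of limb bud and face, 2 of 22 tested rose and 3 fell (median log2 fold change -0.11). This list also takes in Pax9, a paired-box gene without a homeobox, which was not called. Prrx2, a paired-related gene of limb and facial mesenchyme, fell to 28.0 ± 6.47 CPM in Fbxw7 KO, against 75.8 ± 6.74 CPM in WT (SD, n = 3 each; log2 fold change -1.44 ± 0.18 SE, edgeR adjusted p = 0.00227). Irx3, an Iroquois gene (-1.18 ± 0.30), fell, and Dlx4, a distal-less gene (1.57 ± 0.30), rose, with edgeR adjusted p of 0.0334 and 0.0122. Pax3, a gene of neural crest and muscle progenitors, rose to 35.0, 33.7 and 27.8 CPM in Fbxw7 KO, against 4.26, 4.69 and 17.5 CPM in WT (edgeR adjusted p = 0.0454), with WT replicate 3 closest to Fbxw7 KO. Prrx1, named after its value was seen as the remaining call, changed by -0.39 ± 0.11 (edgeR adjusted p = 0.0499) and was not called without any one library (adjusted p = 0.0667 to 0.14). Irx3 and Pax3 were not called when any library but WT replicate 3 was left out (adjusted p = 0.0516 to 0.116 and 0.103 to 0.135), and Dlx4 not without WT replicate 1 (0.0533), WT replicate 2 (0.0525) or Fbxw7 KO replicate 1 (0.0591). The list's count of 5 became 1 without WT replicate 1, WT replicate 2 or Fbxw7 KO replicate 1, and 2 without Fbxw7 KO replicate 2 or Fbxw7 KO replicate 3; Prrx2 was called in each of these fits.

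Of LIM-homeodomain and LIM-only genes and their cofactors, 1 of 9 tested changed (median log2 fold change 0.03). Lmo1, a LIM-only gene, fell to 0.260 ± 0.0275 CPM in Fbxw7 KO, against 0.703 ± 0.0953 CPM in WT (SD, n = 3 each; edgeR adjusted p = 0.0131), and was not called without WT replicate 2 (adjusted p = 0.054) or Fbxw7 KO replicate 1 (0.0567). Ldb1, the shared cofactor of LIM-homeodomain proteins, chosen after its values were seen, read 167 ± 28.5 CPM in Fbxw7 KO and 163 ± 15.1 CPM in WT (edgeR adjusted p = 0.902). Of the bHLH family of HAND2 and TWIST and its partners, 3 of 10 tested changed, all lower in Fbxw7 KO (median -0.25) and all of them Id genes, whose products bind bHLH partners and block DNA binding. Id2 fell to 14.5 ± 3.90 CPM in Fbxw7 KO, against 48.6 ± 5.67 CPM in WT, and Id4 to 38.4 ± 11.0 CPM, against 104 ± 6.89 CPM (SD, n = 3 each; edgeR adjusted p = 0.00197 and 0.00423). Id1 changed by -1.22 ± 0.28 (edgeR adjusted p = 0.0235), and was not called without Fbxw7 KO replicate 1 (0.0668), 2 (0.0637) or 3 (0.0655). Twist1, chosen after its values were seen, read 56.9 ± 4.71 CPM in Fbxw7 KO and 50.6 ± 3.83 CPM in WT (edgeR adjusted p = 0.304).

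Among other transcription factors of limb bud and face, 7 of 26 tested rose and 2 fell (median 0.10). Prdm16, a chromatin regulator of craniofacial development, fell to 0.527, 0.438 and 0.121 CPM in Fbxw7 KO, against 11.9, 12.5 and 10.5 CPM in WT (edgeR adjusted p = 0.000491). Sp9, a zinc-finger gene of the limb bud ridge, rose to 12.9, 15.8 and 3.11 CPM in Fbxw7 KO, against 0.191, 0.0417 and 0.181 CPM in WT (edgeR adjusted p = 0.00197), with Fbxw7 KO replicate 3 lowest. Runx3 and Runx1, genes of skeletal and blood development, rose by 4.43 ± 0.29 and 1.09 ± 0.12 on the log2 scale (SE; edgeR adjusted p = 0.000152 and 0.00126). The list's count of 9 became 4 with WT replicate 1 left out, and 5 with WT replicate 2 or Fbxw7 KO replicate 1 left out.

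Among signals of limb and face and their direct read-outs, 6 of 30 tested rose and 5 fell (median 0.03). Fgf9, a growth factor gene, rose to 10.1 ± 1.49 CPM in Fbxw7 KO, against 0.327 ± 0.114 CPM in WT, and Bmp2 to 25.3 ± 10.3 CPM, against 2.59 ± 0.843 CPM (SD, n = 3 each; log2 fold changes 4.94 ± 0.28 and 3.29 ± 0.35 SE, edgeR adjusted p = 8.96e-05 and 0.00126). Bmpr1b, a BMP receptor gene, rose by 1.47 ± 0.18, and Rspo2, a Wnt-enhancing limb gene, fell by 1.21 on the log2 scale (SE 0.11, edgeR adjusted p = 0.00197 and 0.000695). Fgf10, the mesenchymal signal of limb outgrowth, chosen after its values were seen, fell to 34.8, 33.4 and 48.2 CPM in Fbxw7 KO, against 121, 122 and 198 CPM in WT (edgeR adjusted p = 0.00212). Shh, which HAND2 activates in the limb, had 0 fragments in all 6 libraries, with a one-sided limit of 3 fragments each, or 0.0425 to 0.0586 CPM. Bmp4 (1.60 ± 0.782 CPM in Fbxw7 KO and 1.06 ± 0.0469 CPM in WT) and Grem1 (687 ± 105 CPM in Fbxw7 KO and 651 ± 189 CPM in WT), both chosen after their values were seen, did not pass the test (edgeR adjusted p = 0.337 and 0.84). The list's count of 11 became 7 without WT replicate 1, WT replicate 2 or Fbxw7 KO replicate 1.

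**Figure D5:**
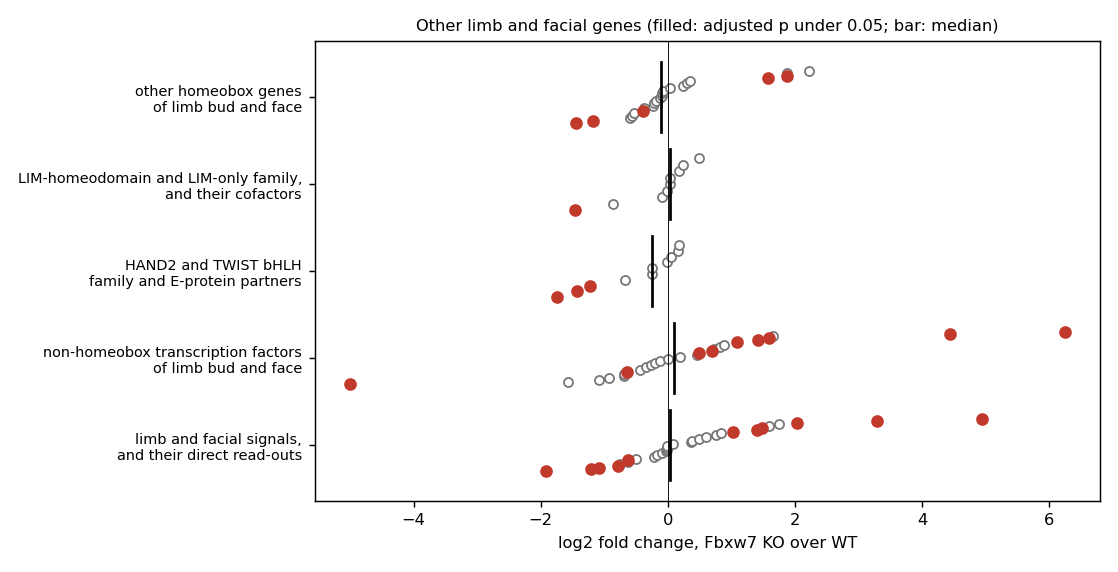
Log2 fold change (Fbxw7 KO over WT, x axis) of each tested gene of the 5 lists; filled points passed an adjusted p of 0.05 in edgeR over all tested loci, open points did not, and bars mark each list's median. Calls lie on both sides of 0 in the homeobox, transcription factor and signal lists, and below 0 in the bHLH and LIM lists.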

How the data were processed

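Total RNA of MEFs was sequenced in 6 libraries, 3 Fbxw7 KO and 3 WT. The submitters' processing notes name Cufflinks 2.2.1, TopHat2 2.1.1, SAMtools 1.5, deepTools and the build mm10, and no source used here states the annotation or strand setting. Deposited by the authors were expected counts (estimated fragments per locus, each library scaled by 1 factor; 88.9% to 89.5% of values up to 1000 were whole multiples of 1 step, tolerance 0.05) and FPKM (fragments per transcript length and library total), per the file headers. Reads shared between copies were split by estimate. Of 53323 loci, 1317 unnamed (at most 3.13e-05% of a library) and 9 named with status HIDATA were left out.

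The design had assumed counts; expected counts were rounded, and genotype was tested as the only term by the robust two-sided quasi-likelihood test of edgeR 4.0.16 (R 4.3.3, filterByExpr, TMM; Benjamini-Hochberg over 16787 loci, threshold 0.05). The SE is the log2 fold change over the square root of F. The test was first tested on simulated data, 3 against 3 libraries with 16560 genes. It recovered 10% of 1.5-fold, 40% of 2-fold, 88% of 4-fold and 90% of 8-fold changes, with 13 false calls. In the simulation smaller changes were thus mostly missed. It altered a far smaller share of genes than was called in these data, so its recovery need not hold here. The share of false calls among its calls was not set against the threshold of 0.05. Alternatives were other factors and filters, DESeq2 1.42.0, limma 3.58.1 on log2(FPKM + 1) or log2(FPKM + 0.1), the replicate number as a block and left-out libraries. Figures used Python 3.11.15 and matplotlib 3.10.9.

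The members, lists and bounds were chosen with earlier results of these data known. The text names all members, the nearest tested locus with a single gene name on each side of them, and any tested locus overlapping their span. It also names the 3 most similar genes of members with at least 1 CPM (4 sparse members left out), and per list up to 4 calls with the smallest adjusted p. Any other gene carries a remark that it was picked with its values in view.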

Additional observations from a re-analysis of the deposited data

How the results depend on the processing

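The number of loci called was 2705. It was 1169 to 3282 with 1 library left out (lowest without Fbxw7 KO replicate 1, highest without Fbxw7 KO replicate 3), 6993 without replicate 3 of both genotypes, 1492 and 1558 by limma on log2(FPKM + 1) and log2(FPKM + 0.1), and 1285 by limma without a filter on low values. The 29 calls over the 5 lists became 15 to 30 with 1 library left out, 59 without replicate 3 of both genotypes, and 17, 18 and 15 by the same limma fits. The 5 neighbouring calls became 3 to 8 with 1 library left out, 13 without replicate 3 of both genotypes, 8 by the Wald test of DESeq2 and 3 by limma on log2(FPKM + 1). The 3 called members, all lower, became 6 without replicate 3 of both genotypes, 2 of them higher and 4 lower in Fbxw7 KO. They became 4 without Fbxw7 KO replicate 3, 4 by limma on log2(FPKM + 1) and 2 by that limma fit without a filter, all lower. In the last fit Lhx9 was not called (limma adjusted p = 0.0735). These member counts are a description, as the members were picked from this contrast. With library totals alone the median log2 fold change over the tested loci was 0.10, against 0.01 with TMM factors, and 65.7% of calls were higher, against 49.8%; the direction of each tested member was kept. The log2 fold change of Msx1 was 0.33 without replicate 3 of both genotypes, -0.078 by limma on log2(FPKM + 1) without a filter and -1.18 to -0.20 with 1 library left out; no other tested member changed sign under the alternatives run. Msx2 stood at -1.004 by limma on log2(FPKM + 1), with or without the filter. Alx4 stood at -6.05 without replicate 3 of both genotypes, at -6.01 to -2.06 with 1 library left out and at -3.99 by limma on log2(FPKM + 0.1). The cause of these shifts was not tested.

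Deviations of same-numbered libraries from their genotype means correlated at 0.05 (replicate 1), 0.17 (replicate 2) and 0.13 (replicate 3) over 13452 loci. Those of libraries with different numbers correlated at -0.21 to 0.16 and were mostly negative. Fbxw7 KO replicate 1 correlated better with WT replicate 2 (0.16) than with WT replicate 1. The main fit does not take the numbers as pairs, and whether libraries of the same number were handled together was not tested. With the replicate block, 2356 loci, 30 list genes and 6 neighbouring loci were called, Id1 (adjusted p = 0.0733), Fbxo8 (0.0527) and Prrx1 (0.0736) were not called, and Alx4 stood at -4.35. Without a filter on low counts Pax3 and Id1 were not called in edgeR (adjusted p = 0.229 and 0.108), and with library totals alone Fbxo8 and Prrx1 were not (0.0718 and 0.0862). Lhx2 and Alx1 were too sparse for a fold change in the test, and with 3 libraries a genotype a gene that did not pass may still differ.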
